A study of Homo sapiens with 6 samples.

Results

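ATG10 and 9 further genes of the ATG12 and ATG8 conjugation systems were followed in HEK293A cells in which the ubiquitin-conjugating enzyme genes UBE2A and UBE2B had been knocked down. The members were taken by gene name from both deposited tables: ATG10, ATG3, ATG5, ATG7, ATG12, ATG16L1, MAP1LC3B, GABARAP, GABARAPL1 and GABARAPL2. All 10 were found among the 19922 genes that the tables share, and 9 of the 10 passed the filter on low counts that left 13629 genes for testing. The set was chosen by the read counts of ATG10, which were lower in knockdown than in control libraries, so its difference between the groups, and those of the other members in that contrast, are given as a description.

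The knockdown group was HEK293A, a derivative of the embryonic kidney line HEK293, transfected with siRNAs against UBE2A and UBE2B, labelled as 25 uM each, and taken 48 h later (3 libraries). The control group was the same line given vehicle for 48 h without siRNA (3 libraries), so a general response to siRNA cannot be told apart from the loss of the targets. Replicates 1 and 2 of each group stood in the first table. A further knockdown library, in a column named for RAD6 (the older name of UBE2A and UBE2B), and a further control library, both without a replicate number, stood in the second. Libraries held 10887217 to 14564624 reads assigned to genes, and the tables divided them along the first principal component, with 56.2% of the variance. UBE2A stood at 51.9, 57.7 and 49.1 CPM (read counts divided by TMM-scaled library size) in the knockdown libraries, against 99.6, 97.9 and 105 CPM in the control libraries. UBE2B stood at 51.9, 55.0 and 46.0 CPM in knockdown and at 63.1, 64.1 and 61.2 CPM in control libraries, so both falls were partial. The 8 HEK293 markers examined ran from 1.45 CPM (NEFM) to 1045 CPM (KRT8). The 8 markers of blood, endothelium, liver, fibroblasts and adult kidney were at 0.217 CPM or less, with PTPRC, CD3E, UMOD and SLC34A1 at 0.

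Autophagy encloses cytoplasm in a double membrane and delivers it to the lysosome, and its membrane carries small proteins of the ATG8 family joined to a lipid. ATG7 is the E1 that activates both ATG12 and the ATG8 proteins. ATG10 is the E2 that passes ATG12 to ATG5, and the ATG12-ATG5 conjugate binds ATG16L1 and acts as an E3 for ATG3, the E2 that joins ATG8 proteins to phosphatidylethanolamine. ATG10 and ATG3 are thus the E2 enzymes of these cascades, as UBE2A and UBE2B are E2 enzymes of ubiquitin. MAP1LC3B (LC3B), GABARAP, GABARAPL1 and GABARAPL2 encode ATG8 proteins.

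The starts of the E2 genes are shown because ATG3 was the 1 member whose promoter window held the E-box CACGTG, the core of the element bound by TFEB, a regulator of lysosome genes. Both lines give the 30 bases before the RefSeq start (GRCh38.p14), read on the gene's strand. Capitals mark CpG in ATG10 (chr5:81971993-81972022, plus strand) and CACGTG in ATG3 (chr3:112561963-112561992, minus strand).
ATG10: CGctaggCGgcccccaCGgCGCGggaaggc
ATG3: cctttctcacgtCACGTGccgggagagtct
CACGTG, which reads the same on both strands, was found in 1 of the 11 RefSeq promoter windows of the members. It was found in 7.26% of all 35116 windows, so 1 of 11 is near that share and nothing is read from it. Each window spanned a start and was short, that of ATG10 running from 81971773 to 81972072, and sites further away were not searched. The longer palindrome, with GT before CACGTG and AC after it, was found in 0 of the 11 windows, that of ATG3 included, and in 0.353% of all. The ATG10 window held 37 CpG and the ATG3 window 24, against a median of 14 over all windows. This was not particular to the E2 genes. Apart from an ATG5 window with 2 CpG, every member window was above that median, up to 42 for MAP1LC3B.

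ATG10 (ENSG00000152348, chromosome 5, 81972023 to 82276857 on hg38, plus strand), the ATG12-conjugating E2, was lower in the knockdown libraries. It stood at 8.63, 9.19 and 8.34 CPM in knockdown replicates 1 and 2 and the unnumbered knockdown library, against 11.0, 13.0 and 14.8 CPM in the control libraries in the same order. The 3 knockdown libraries lay close together and all below the lowest control, while the controls were spread more widely. The means were 8.72 ± 0.43 CPM in knockdown and 12.9 ± 1.90 CPM in control cells (SD, n = 3 each). The counts behind them were 120, 119 and 92 reads in knockdown libraries and 159, 173 and 166 reads in control libraries. The fitted log2 fold change was -0.55 (standard error 0.15, edgeR with the table as a term), a fall by 31.8%. Within the first table the log2 difference was -0.42, and in the second table, with 1 library a group, it was -0.81. The difference between these effects was -0.40 on the log2 scale (standard error 0.32) and did not pass (edgeR interaction of table and group, adjusted p = 1.00).

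ATG10 was the 1 of 9 tested members past an adjusted p of 0.05 in this fit, in which 2.47% of all tested genes passed. It was also the 1 tested member whose groups did not overlap, as 7.70% of all tested genes did, 3.74% with knockdown below and 3.96% above. Nothing is read from these counts, since this contrast chose ATG10. The call ended without knockdown replicate 1 (log2 fold change -0.57), control replicate 2 (-0.51), and the second table's knockdown (-0.42) or control (-0.43) library, and in the first table alone (-0.43). It also ended with the group as the sole term (-0.56), where edgeR called 0 of 13629 genes, 0% of them, with 327 (2.40%) at an unadjusted p under 0.05, and DESeq2 gave ATG10 no adjusted p (-0.56). With the replicate numbers as a block, where 2.66% of all genes passed, ATG10 passed (-0.55). Its direction was the same in all 14 alternatives, but these reuse the non-overlapping libraries that chose ATG10, so nothing is read from that.

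**Figure D1:**
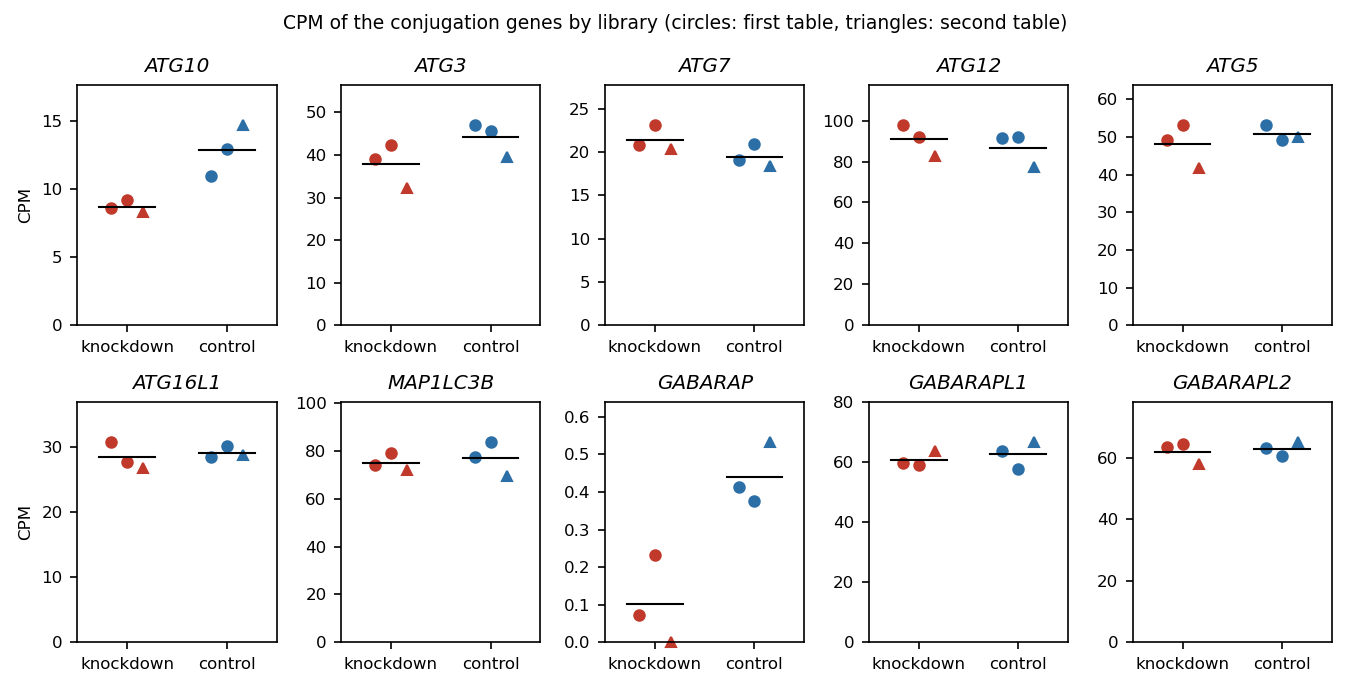
CPM of each of the 10 members (vertical axes from 0, own scale for each gene) in the 3 knockdown and 3 control libraries, with the group mean as a line. The knockdown points of ATG10, from 8.34 to 9.19 CPM, lie below all control points, from 11.0 to 14.8 CPM, whereas the groups of the other tested members overlap.

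ATG3 (ENSG00000144848, chromosome 3, 112532510 to 112562046, minus strand), the E2 for the ATG8 proteins, stood at 39.1, 42.4 and 32.3 CPM in knockdown libraries and at 47.2, 45.7 and 39.6 CPM in control libraries. Each knockdown library was below the control library of its own table, yet the groups overlapped, because both libraries of the second table were low. The log2 fold change was -0.22 (standard error 0.08), with -0.19 in the first table and -0.29 in the other, and ATG3 did not pass. ATG7, the shared E1, stood at 20.8, 23.2 and 20.3 CPM in knockdown and at 19.0, 20.9 and 18.4 CPM in control libraries. Its log2 fold change was 0.14 (standard error 0.11), and it did not pass.

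ATG12, the ubiquitin-like protein that ATG10 handles, stood at 98.1, 92.2 and 82.6 CPM in knockdown and at 91.3, 91.8 and 77.3 CPM in control libraries (log2 fold change 0.07, standard error 0.06). ATG5, its acceptor, stood at 49.1, 53.3 and 41.7 CPM in knockdown and at 53.1, 49.1 and 50.0 CPM in control libraries. The ATG5 log2 difference was 0.00 in the first table and -0.26 in the other, with -0.08 (standard error 0.08) over both. ATG16L1, the scaffold of the conjugate, stood at 30.8, 27.6 and 26.8 CPM in knockdown and at 28.5, 30.1 and 28.7 CPM in control libraries (log2 fold change -0.03, standard error 0.09). None of these 3 passed, and in each the groups overlapped.

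Among the ATG8 genes, MAP1LC3B stood at 74.0, 79.2 and 71.7 CPM in knockdown and at 77.4, 83.7 and 69.6 CPM in control libraries. GABARAPL1 stood at 59.8, 59.0 and 63.7 CPM in knockdown and at 63.8, 57.6 and 66.8 CPM in control libraries. GABARAPL2 stood at 63.3, 64.5 and 58.0 CPM in knockdown and at 63.0, 60.5 and 65.2 CPM in control libraries. Their groups overlapped and none passed, with log2 fold changes of -0.04 (standard error 0.07) for MAP1LC3B, -0.04 (0.07) for GABARAPL1 and -0.02 (0.07) for GABARAPL2. Over the 9 tested members 7 had a negative log2 fold change and the median was -0.04. Over all tested genes 49.4% were negative and the median was 0.00. Of the 7, ATG10 chose the set, and ATG5, ATG16L1, MAP1LC3B and GABARAPL2 changed sign in some alternatives. No lean of the set is read from the count.

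**Figure D2:**
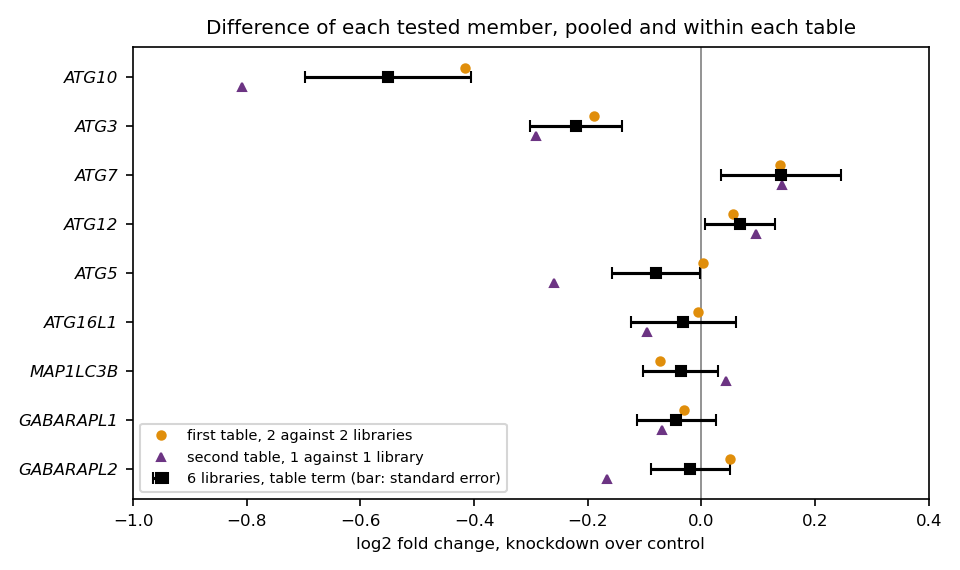
Log2 fold change, knockdown over control, of the 9 tested members: squares are the fit over 6 libraries with bars of 1 standard error, circles and triangles the differences of mean log2 CPM within each table. ATG10 has -0.55 and the other 8 members lie between -0.22 (ATG3) and 0.14 (ATG7).

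GABARAP (ENSG00000170296, chromosome 17, 7240008 to 7242449, minus strand), the gene that names its ATG8 subfamily, had almost no assigned reads in either group. It had 1, 3 and 0 reads in knockdown libraries and 6, 5 and 6 reads in control libraries, where 3 reads are worth 0.207 to 0.272 CPM. It did not pass the filter, and no fold change is given. In the deposited coordinates a further gene of the same strand, ENSG00000262526 (7240427 to 7244635), covers 2023 bases of the GABARAP span, and it was listed at 0 reads in all 6 libraries. In the GENCODE 29 annotation that gene, AC120057.2, shares 691 exon bases with GABARAP, and AC120057.3, on the opposite strand, shares 571. Together they touch 55.7% of the 2266 exon bases of GABARAP, the highest share among the 10 members. How reads on shared bases were assigned is not given in the sources used here, and the part of the overlap in the low GABARAP count was not tested, so the count is no measure of the gene's expression.

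**Figure D3:**
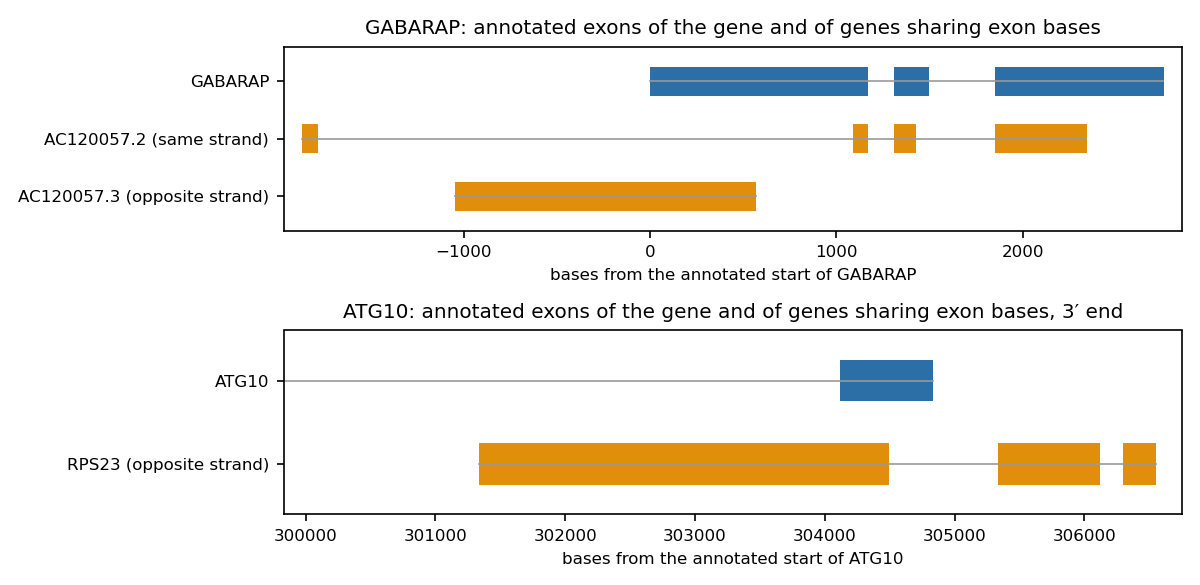
Annotated exons (GENCODE 29, boxes) of GABARAP with the genes that share its exon bases, and of the 3′ end of ATG10 with RPS23, by distance in bases from the annotated start of GABARAP or ATG10. AC120057.2 covers 691 exon bases of GABARAP on the same strand, and RPS23 covers 374 exon bases of ATG10 on the opposite strand.

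The last exon of ATG10 runs into RPS23, a ribosomal protein gene on the opposite strand, over 374 bases or 6.86% of the ATG10 exon bases. Without a stated strand setting, reads of ATG10 and RPS23 in that stretch cannot be told apart. RPS23 itself stood at 101, 105 and 99.1 CPM in knockdown libraries and at 91.6, 98.8 and 97.6 CPM in control libraries, and did not pass (log2 fold change 0.08, standard error 0.06). Shared exon bases on the opposite strand also touched ATG7 (18.1%, with VGLL4), GABARAPL1 (8.05%, with AC115676.1), ATG12 (4.25%, with AP3S1), MAP1LC3B (2.82%, with FBXO31) and ATG3 (2.47%, with SLC35A5). ATG5, ATG16L1 and GABARAPL2 shared none. The 8-base sequence ATGAATTA, present in the longest annotated 3′ UTR of 26.9% of the genes that fell in knockdown cells, was searched on the transcript strand in that UTR of each member. It was found in 0 of 10 members, ATG10 included, and in 5.85% of 13538 tested genes with a UTR. At that share, 10 members are too few for its absence to be informative. The 26.9% rests on the contrast that chose ATG10, so nothing is read from this search.

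Levels were compared between genes as deposited FPKM, which divides each count by the gene length in the table. All 10 members had the same length in both tables. GABARAPL2 was highest, at 20.7 ± 1.01 FPKM in knockdown and 20.7 ± 0.89 FPKM in control cells (SD, n = 3 each), and above the next gene in all 6 libraries. GABARAPL1 had 15.1 ± 0.74 and MAP1LC3B 15.0 ± 0.62 FPKM in knockdown cells, against 15.4 ± 1.24 and 15.1 ± 1.30 FPKM in control cells. Their order changed between libraries, with GABARAPL1 above MAP1LC3B in 4 of 6. ATG12 followed with 10.3 ± 0.86 FPKM in knockdown and 9.70 ± 0.90 FPKM in control cells, above ATG5 in 5 of 6 libraries.

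Below them came ATG5 (8.53 ± 0.97 FPKM in knockdown, 8.89 ± 0.41 FPKM in control cells), ATG3 (6.24 ± 0.80 and 7.16 ± 0.65 FPKM) and ATG16L1 (4.72 ± 0.35 and 4.77 ± 0.11 FPKM), each above the next gene in 6 of 6 libraries. ATG7 had 2.44 ± 0.15 FPKM in knockdown and 2.18 ± 0.13 FPKM in control cells. ATG10 was the lowest member with more than a few reads, at 1.61 ± 0.06 FPKM in knockdown and 2.35 ± 0.35 FPKM in control cells. ATG7 was above ATG10 in the 3 knockdown libraries and in control replicate 1, and ATG10 above ATG7 in the other two control libraries. The FPKM ratio of ATG10 to ATG7 was 0.66 ± 0.02 in knockdown and 1.08 ± 0.19 in control cells, which restates the ATG10 counts that chose the set. The ratio of the E2 genes, ATG3 to ATG10, was 3.87 ± 0.36 in knockdown and 3.12 ± 0.72 in control cells, and the groups overlapped.

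**Figure D4:**
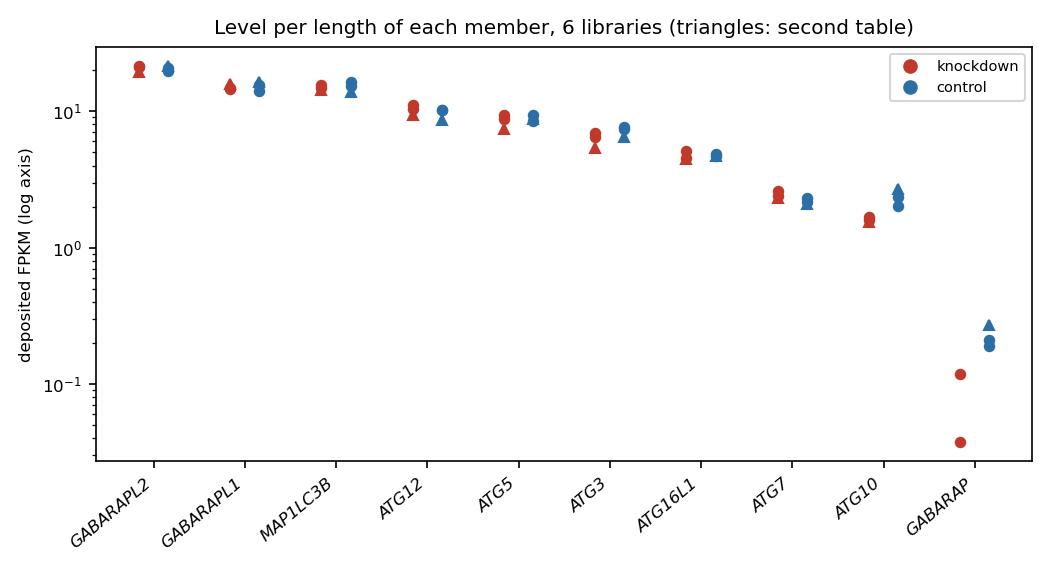
Deposited FPKM (log axis) of each member in the 6 libraries, in falling order of the mean, with knockdown left of control and triangles for the second table; the unnumbered knockdown library, listed at 0 for GABARAP, is not drawn. The levels run from about 20.7 FPKM for GABARAPL2 to 1.61 FPKM (knockdown) and 2.35 FPKM (control) for ATG10, with GABARAP below.

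The 3 most abundant ATG8 genes took shares of the measured ATG8 transcripts that differed between the groups by less than the libraries did. Of the summed FPKM of 7 ATG8 genes, GABARAPL2 took 38.5% ± 1.39 in knockdown and 38.0% ± 1.61 in control cells (SD, n = 3 each). GABARAPL1 took 28.1% ± 1.76 in knockdown and 28.1% ± 2.15 in control cells, and MAP1LC3B took 27.9% ± 0.87 and 27.7% ± 2.49. MAP1LC3C took 3.99% ± 0.53 in knockdown and 4.58% ± 1.74 in control cells. MAP1LC3B2, a near-identical copy of MAP1LC3B whose reads are uncertain, took 1.19% ± 0.43 in knockdown and 1.05% ± 0.29 in control cells. MAP1LC3A, listed at 0 to 0.150 CPM, and GABARAP took less than the others. These are shares of what was counted, so a low GABARAP count raises the rest.

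Between the tables, a measure that did not choose the members, 2 of the 9 tested members differed, where 38.2% of all tested genes did and 19.7% were lower in the second table. ATG3 was lower in the second table than in the first (log2 difference -0.28, standard error 0.09, edgeR's adjusted p = 0.00998), in the knockdown and in the control library alike. ATG12 was also lower in the second table (-0.22, standard error 0.07, adjusted p = 0.00675). Both calls ended without the second table's knockdown or control library. ATG10 had a log2 difference of 0.13 (standard error 0.16, adjusted p = 0.546) between the tables. None of the 9 members passed for the interaction of table and group in edgeR, and 0 had an unadjusted p under 0.05. Over all genes 0.00734% passed for it, and 4.61% had an unadjusted p under 0.05.

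The genes whose pattern was most like that of ATG10 were NCL (nucleolin), CCN3 (a secreted matricellular protein), NIFK (a nucleolar protein), TPD52L2 and EIF3M (a translation initiation factor subunit). The measure was Pearson's r of log2 CPM, centred within each table, over the 6 libraries and 11331 genes of at least 5 CPM, and it ran from 0.998 to 1.00 for these 5. The libraries are shared by all genes, and centring leaves few free values, so r is a description. Centring within tables keeps the difference between groups that chose ATG10, so genes lower in knockdown rank high by construction. Nothing is read from which genes came first or from their roles. NCL stood at 1004, 1021 and 868 CPM in knockdown libraries and at 1067, 1116 and 1012 CPM in control libraries, a log2 fold change of -0.15 (standard error 0.05), smaller in size than that of ATG10. Among the members r with ATG10 was 0.92 for ATG3, 0.61 for ATG5, -0.56 for ATG7 and -0.83 for ATG12. For the remaining tested members it was 0.43 (ATG16L1), 0.41 (GABARAPL2), 0.32 (MAP1LC3B) and 0.24 (GABARAPL1).

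In the rest of the autophagy pathway and in the cascades of other ubiquitin-like proteins, 1 of 113 tested genes rose and 0 fell (0.885%), against 0.638% of all tested genes that rose and 1.83% that fell. At an unadjusted p under 0.05 there were 15 of the 113 in edgeR, near the 14.1% of all tested genes, and 2 of the 113 with the group alone. Limma-voom called the same 1 gene. That gene was ATG16L2, a paralogue of ATG16L1. ATG16L2 stood at 26.2, 21.1 and 21.9 CPM in knockdown libraries, against 20.2, 14.3 and 16.2 CPM in control libraries. Every knockdown library was above every control library, though the lowest knockdown and the highest control value were close. The log2 fold change was 0.45 (standard error 0.12, edgeR's adjusted p = 0.0267), with 0.46 in the first table and 0.44 in the other. Of its GENCODE 29 exon bases 7.89% are shared with FCHSD2 on the opposite strand (log2 fold change -0.04), and without a stated strand setting reads there cannot be told apart. The adjusted p was 0.359 without knockdown replicate 1 (log2 fold change 0.34), 0.372 without control replicate 2 (0.32), 0.131 without the second table's knockdown library (0.45), 0.124 without its control library (0.45), 0.127 in the first table alone (0.45) and 1.00 with the group alone (0.45).

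By role, none of the 5 ULK1 complex genes passed (median log2 fold change 0.01); ATG13 and RB1CC1, the most abundant, had 0.01 and -0.04. None of the 9 class III PI3 kinase genes passed (median 0.00), with 0.00 for AMBRA1 and -0.02 for PIK3R4. Of the ATG9, ATG2 and WIPI genes, which supply lipid and mark the growing membrane, 9 were tested and none passed (median 0.02). WDR45B had -0.07 and WIPI2, which recruits ATG16L1, had 0.02. The 15 receptors that link cargo to ATG8 proteins had a median of 0.01 and no call, with -0.10 for PHB2 and -0.09 for NCOA4. The 14 fusion genes had a median of 0.05, the highest of these lists, with 3 of 14 negative and no call, with -0.06 for RAB7A and -0.03 for YKT6.

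Lysosome and TFEB genes had a median log2 fold change of -0.07, the lowest of these lists, and none passed the threshold. Of these genes 13 of 19 were negative, where 49.4% of all tested genes were. This list and the fusion genes were singled out as the extremes after the values were seen, so no lean is read from either. LAMP2 had -0.07 and ATP6V1B2 -0.03. Of 16 mTORC1 and AMPK genes none passed (median 0.01), with 0.10 for TSC2 and -0.14 for PRKAA1. Enzymes and modifiers of SUMO, NEDD8, UFM1, ISG15 and URM1 also gave no call among 18 tested (median 0.01), with -0.07 for SAE1 and -0.11 for UBA2, subunits of the SUMO E1. Of the other ATG8 and ATG16 genes, ATG4 proteases and co-factors, 11 were tested, with a median of 0.03 and ATG16L2 as the call. ATG4D, a protease that processes ATG8 proteins and is named after its values were seen, had 0.31 (standard error 0.10, edgeR's adjusted p = 0.0819).

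**Figure D5:**
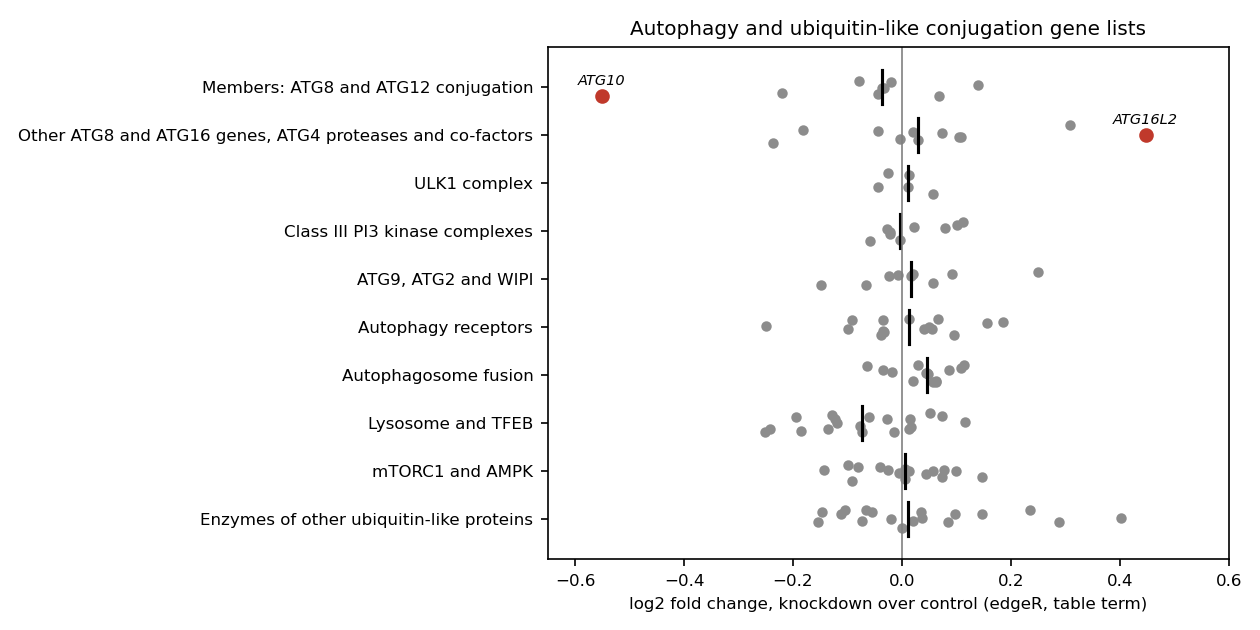
Log2 fold change, knockdown over control, of each tested gene in the member list and 9 further lists (edgeR with the table term); black ticks are list medians and large red points passed an adjusted p of 0.05. ATG10 at -0.55 and ATG16L2 at 0.45 are the points past the threshold, and the list medians lie between -0.07 and 0.05.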

How the data were processed

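RNA-seq values came in 2 tables with counts and FPKM per gene. The deposited counts were labelled as read counts in the column headers and were treated as unnormalized. HISAT2, HTSeq and hg38 appear, without versions, in the submitters' processing notes. The deposited FPKM equalled count over gene length and library total when recomputed, and gene lengths were taken as deposited. The tables were joined by Ensembl identifier into 19922 genes, 17183 of them with the same length and coordinates. Symbols came from the reference name table. Changes were tested on counts with edgeR 4.0.16 (R 4.3.3; TMM, filterByExpr, quasi-likelihood test, Benjamini-Hochberg over all tested genes) with table and group as terms, and checked on simulated data. Alternatives used limma-voom 3.58.1, DESeq2 1.42.0 and other settings. No libraries agreed within sampling noise (chi-square per gene 3.52 to 26.0). Nothing says that replicates came from separate cultures, so p-values reflect only how far these libraries differ, possibly for technical reasons. Floors of 3 reads cover counting error only. Log2 CPM used a prior count of 2. Promoters are from RefSeq (GRCh38.p14), exons and UTRs from GENCODE 29. Named genes were the members, the targets, the genes most like ATG10, and from each list the 2 largest changes past the threshold or else the 2 most abundant. ATG4D, MAP1LC3A, MAP1LC3B2, MAP1LC3C, NEDD8 and PRKAG1 fall outside that rule and were named after their values were seen. Members and lists were chosen with earlier results of these data known. One marker gene is not reported here.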

Additional observations from a re-analysis of the deposited data

How the results depend on the processing

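The count of 1 passing member became 0 with the group alone, with the first table alone and in DESeq2, where ATG10 had no adjusted p, and ran from 0 to 1 with 1 library left out. The count of 1 passing pathway gene became 0 with the group alone, with the first table alone and in DESeq2 (no adjusted p for ATG16L2), and 2 with no filter beyond 1 count, and it ran from 0 to 3 with 1 library left out. The 2 members that differed between tables ran from 0 to 2 with 1 library left out. Leaving out samples leaves fewer residual values. In DESeq2, ATG10 and ATG16L2 had unadjusted p-values of 0.00297 and 0.00408 but were left out of its adjustment, so neither was judged against the threshold there. The cause of the remaining differences was not tested. With the replicate numbers as a block, 1 member (ATG10) and 1 pathway gene (ATG16L2) passed, as without it; same-numbered libraries did not deviate together (r = 0.01 across 13629 genes), so the numbers were not taken as pairing. Without division by length, MAP1LC3B took 37.1%, GABARAPL1 30.2% and GABARAPL2 30.5% of the ATG8 counts (means of 6 libraries), against 27.8%, 28.1% and 38.3% of the FPKM. The 126 recomputed log2 fold changes of the 9 tested members moved by less than the gene's residual SD of log2 CPM after table and group. The alternatives reuse the same libraries, which limits how far a value can move, so no robustness is read from this. In all 14 alternatives 5 members kept their sign. At 92 to 173 reads, ATG10 is the tested member with the fewest counts.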

Other observations

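PRKAG1, an AMPK subunit gene in the list above, had 31 and 26 reads in the first table's knockdown libraries and 33 and 22 reads in its control libraries. In the second table it had 847 reads in the knockdown and 954 reads in the control library. Its coordinates were the same in both tables (chromosome 12, 49002274 to 49018807). The first table also lists ENSG00000288710 on the same strand (49002274 to 49024075), with 10 and 0 reads in knockdown and 6 and 2 reads in control libraries, and the second table as used here has no row for it. NEDD8, the modifier of cullins, had 66, 60 and 25 reads in knockdown and 51, 48 and 42 reads in control libraries, and NEDD8-MDP1, which overlaps it on the same strand, had 0 reads in all 6. As with GABARAP, the part of the overlapping gene models in these counts was not tested.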
